A study of Mus musculus with 5 samples.

Results

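Embryonic stem cell (ESC)-like cells that grew out of teratomas formed by co-injection were compared with the ESCs that had been injected. A B6CBAF1 ESC line was mixed with B6D2F1 fetal fibroblasts and placed under the skin of B6D2F1 mice, and cells of the resulting teratomas were returned to ESC culture. These ESC-like cells were measured on 2 arrays, named batch 1 and batch 2 in the sample labels, and the parental ESCs on 1 array, so that the comparison used 3 of the 5 arrays of the series. The other 2 arrays held ESC-like cells from teratomas of ESCs injected alone, into B6CBAF1 mice (homologous) or into B6D2F1 mice (heterologous). Parental ESCs and ESC-like cells were both kept on a feeder layer of inactivated ICR mouse embryonic fibroblasts with leukemia inhibitory factor (LIF), and the study's methods give a higher LIF concentration for the cells from teratomas. The parental cells are 1 line, and the sources used here do not give its sex, nor whether the batches came from 1 teratoma or from several. All probe sets that name exactly 1 gene symbol were used, and these stand for 19938 genes, all of which entered the comparison.

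An array value is the log2 of the hybridisation signal of a gene, and a difference of 1 between arrays is 2-fold. Each difference given here is the mean of the co-injection batches minus the parental array, with the SD of the batches (n = 2). A gene was counted as higher or lower when this difference was over 1 in size. With 1 parental array the difference itself has no replicate check and no p-value is given beside it. The SD covers the spread between the batches alone, which the study counts as separate cell populations, and the number of arrays limits the precision. In a bulk sample, fewer cells of a type and less RNA per cell cannot be told apart.

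Mouse ESCs keep a naive state of pluripotency with the transcription factor genes Pou5f1, Sox2 and Nanog, supported in culture by LIF through STAT3. They can pass to a primed state, as in the epiblast after implantation, in which the de novo DNA methyltransferases are raised. Naive cells have less DNA methylation and express a number of genes otherwise used in germ cells. In female ESCs both X chromosomes are active, and such lines tend to lose an X in culture.

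Core pluripotency genes were high on all 3 arrays. Pou5f1 was at 12.60 in parental ESCs and at 12.40 and 12.36 in the batches, and Tdgf1, which encodes the co-receptor Cripto, was at 12.63, 12.64 and 12.62. None of 15 core genes was past 2-fold, and their median difference was −0.07. The lowest of them were Eras (−0.83 ± 0.05), an X-linked Ras family gene, Fgf4 (−0.82 ± 0.00) and Nanog (−0.66 ± 0.04). Nanog was at 12.94 in parental ESCs and at 12.25 and 12.31 in the batches. The highest was the RNA-binding protein gene Lin28a (0.37 ± 0.02). Zfp42 (Rex-1), a marker of undifferentiated cells, lay at 10.16 in parental ESCs and at 9.40 and 9.63 in the batches. Both co-injection arrays thus held the defining genes of the labelled cell type.

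Listed marker genes of blood and vessel cells, which a teratoma or its host could bring in, were within 2-fold of the parental level. Of 15 macrophage genes, 14 lymphocyte genes and 12 endothelial genes none was past 2-fold, with median differences of 0.05, 0.08 and 0.07. The macrophage list had a mean value of 6.65 in parental ESCs, 6.57 in batch 1 and 6.66 in batch 2, and the lymphocyte list one of 6.66, 6.60 and 6.70. Ptprc, the pan-leukocyte gene CD45, was at 5.53, 5.66 and 5.62. These levels were below the median of all array values, 7.49, while the endothelial list had means above it, of 7.74, 7.82 and 7.86. Outside these lists, and chosen after their values were seen, the leukocyte genes Laptm5 (−1.89) and Fcgr2b (−1.41) were lower than in parental ESCs. Of the reference genes, 8 housekeeping genes had a median difference of 0.01.

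In total, the co-injection cells were more than 2-fold above parental ESCs for 129 genes, which is 0.647% of the genes, and more than 2-fold below them for 287 genes, which is 1.44%. Together these 416 genes are 2.09% of all. These shares are the background for the counts of list members given below. The median difference over all genes was 0.04. Of the 416 genes, 365 (1.83% of all genes) passed 2-fold in each batch, 108 of them higher (0.542%) and 257 lower (1.29%), and the other 51 passed in 1 batch. All 416 genes lay on the same side of the parental array in both batches. The rule fixed this, as no gap between the batches exceeded 1.01. Past 4-fold there were 8 genes higher and 31 lower. The lower side was therefore the larger one at both thresholds. Of the 129 higher genes, 112 were also past 2-fold higher on the homologous array and 88 on the heterologous array. Of the 287 lower genes, 226 and 198 were past 2-fold lower there. These arrays share the parental array with the co-injection cells. Most of the 416 genes thus differed the same way in ESC-like cells from ESCs injected alone.

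The batches lay close to each other. Their values differed by a median of 0.07 over all genes, and 95% of genes differed by less than 0.25. A single gene, the microRNA gene Mir380, differed more than 2-fold between them (0.00502% of genes), and 8 genes differed more than 1.5-fold. The median SD of the batches over the 416 genes was 0.06, and the largest was 0.46, for the predicted gene Gm5662. An SD of 0 is no measure of error here: 1176 genes, 22 of the 416 among them, carried the same value on both arrays after the summary of their probes.

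**Figure D1:**
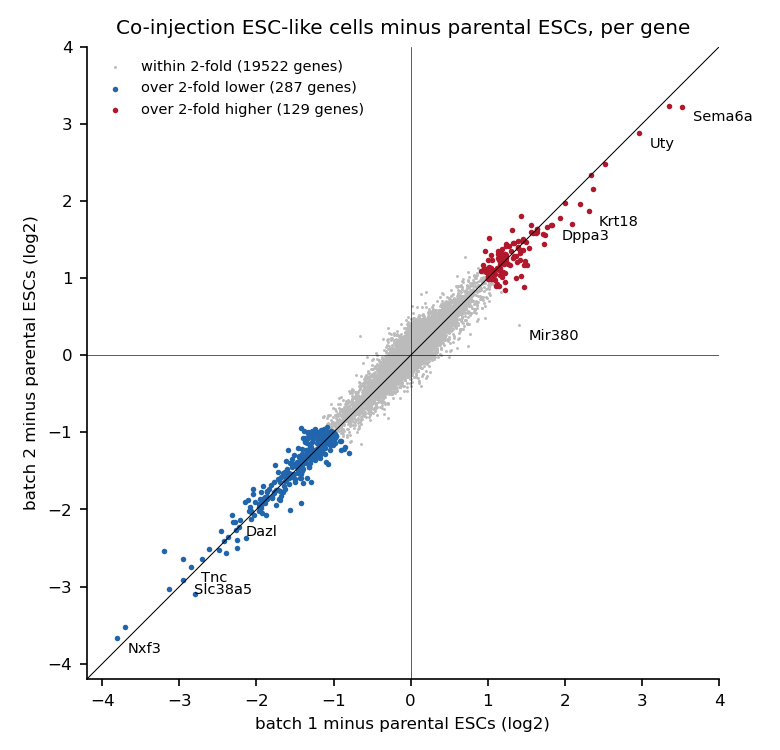
Each point is 1 of 19938 genes, with the difference of batch 1 from parental ESCs on the horizontal axis and that of batch 2 on the vertical axis, both log2, and the diagonal marking equal differences. The 129 higher genes (red) and the 287 lower genes (blue) lie along the diagonal in both batches, while Mir380 lies off it.

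The threshold cuts through a continuous range of values. Within 0.05 of it lay 52 genes just inside and 68 just outside. The nearest inside were Utrn, the gene of utrophin, and Enpp3 on the higher side, and Fcgr3, Mfge8 and Ppp2r2c on the lower side. The nearest outside were Esrp1, an epithelial splicing regulator, Fabp7, a lipid carrier of neural progenitors, and Cdca7l on the higher side, and Nefl and 1700024J04Rik on the lower side. All 10 differences round to 1.00 in size, so that which side they fall on says little.

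The gene that was highest above parental ESCs was Sema6a, which encodes a membrane semaphorin of cell guidance. It was at 7.60 in parental ESCs and at 11.13 and 10.83 in the batches, a difference of 3.38 ± 0.21 or 10.4-fold. On the homologous and heterologous arrays it was at 10.78 and 10.58. The X-linked Fndc3c1 followed with 7.14 in parental ESCs against 10.50 and 10.37, a difference of 3.29 ± 0.09. Then came the Y-linked Uty and Eif2s3y, Greb1l (2.34 ± 0.00), Mal2 (2.26 ± 0.14), which takes part in membrane traffic of epithelial cells, the keratin gene Krt18, Fam171b (2.08 ± 0.16), the membrane protein gene Prtg (1.98 ± 0.02) and Krt8. Farther down were the milk casein gene Csn3 (1.86 ± 0.11), Dppa3, the neurogenic factor Neurod1 (1.76 ± 0.10), the potassium channel gene Kcnj3 (1.72 ± 0.08), the X-linked kinase gene Nrk (1.65 ± 0.13), Sema3e, Zfp608, Atp10a, Eif4g3 and Selenop, the last 5 between 1.62 and 1.64. These 20 genes lay on 10 chromosomes, with 2 of them on the X.

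On the lower side 10 of the 20 farthest genes were X-linked. Nxf3, of the family of mRNA export factors, was at 9.76 in parental ESCs and at 5.95 and 6.10 in the batches, a difference of −3.74 ± 0.10 or 13.4-fold. On the homologous and heterologous arrays it was at 6.09 and 6.10. Usp26, a deubiquitinase gene of the testis, was at 9.51 against 5.80 and 5.98 (−3.62 ± 0.13). Slc38a5, which encodes a glutamine transporter, was at 10.16 against 7.21 and 7.24 (−2.93 ± 0.02). The other X-linked genes were Egfl6 (−2.95 ± 0.21), Pnma5 (−2.80 ± 0.22), Bgn (−2.68 ± 0.05), Gm9 (−2.56 ± 0.08), Tktl1 (−2.48 ± 0.12), Rhox1 (−2.37 ± 0.12) and Fmr1nb (−2.32 ± 0.10). All 10 had co-injection values below 9 on both arrays, from parental values above 9.

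Of the autosomal genes on this side, the olfactory receptor gene Olfr153 was at 8.51 in parental ESCs and at 5.37 and 5.48 in the batches (−3.08 ± 0.08). Gm5662 (−2.87 ± 0.46), Tnc (−2.80 ± 0.07), the citrate transporter gene Slc13a5 (−2.50 ± 0.03), the lens crystallin gene Crygd (−2.41 ± 0.01), the ubiquitin and ISG15 conjugating enzyme gene Ube2l6 (−2.38 ± 0.18), Pramel7 (−2.37 ± 0.01), Smc1b (−2.27 ± 0.00), Tdpoz3 (−2.26 ± 0.17) and Dnajc5g (−2.24 ± 0.10) completed the 20. Pramel7 is a gene of the preimplantation embryo, and Tdpoz3 is on the list of the 2-cell stage. Of this list 2 of 9 genes were lower, beside 1.44% of all genes, the other being Zfp352 (−1.11 ± 0.13). Only 1 of the 9 had a mean level above the median of all values, 7.49. From parental ESCs, Tdpoz3 differed by −1.96 on the homologous and −0.51 on the heterologous array, and Zfp352 by −1.17 and 0.02.

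Germ cell genes were the list with the most lower members. Of 30 measured genes of germ cells and meiosis 12 were more than 2-fold lower and none was higher, beside 1.44% and 0.647% of all genes, and the median difference was −0.42, beside 0.04 over all genes. Their promoters are shown because these genes are known for promoters rich in CG dinucleotides, which take DNA methylation, and because all of the members past 2-fold were lower. The 200 bases before the start of 4 lower genes were read from RefSeq promoters (GRCm38.p6) and are printed along the strand of the gene. Capitals mark the letters CACGTG, an E-box, and GGCGGGA, of the kind that E2F factors bind, searched on both strands. On the minus strand GGCGGGA reads TCCCGCC, and CACGTG reads the same on both strands.
Dazl, chr17:50293621-50293820, minus strand: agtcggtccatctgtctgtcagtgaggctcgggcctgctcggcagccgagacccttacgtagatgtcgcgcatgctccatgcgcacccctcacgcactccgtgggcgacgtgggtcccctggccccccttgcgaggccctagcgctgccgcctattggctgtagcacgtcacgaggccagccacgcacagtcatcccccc
Mael, chr1:166238745-166238944, minus strand: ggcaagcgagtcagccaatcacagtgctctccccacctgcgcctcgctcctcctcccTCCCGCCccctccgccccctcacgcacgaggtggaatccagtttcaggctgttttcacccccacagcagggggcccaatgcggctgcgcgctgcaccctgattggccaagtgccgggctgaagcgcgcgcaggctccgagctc
Sycp1, chr3:102936101-102936300, minus strand: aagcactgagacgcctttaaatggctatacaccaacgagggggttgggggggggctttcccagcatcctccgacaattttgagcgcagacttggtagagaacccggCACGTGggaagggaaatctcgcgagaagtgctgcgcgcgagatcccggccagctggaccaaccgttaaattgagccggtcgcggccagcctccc
Hormad1, chr3:95559477-95559676, plus strand: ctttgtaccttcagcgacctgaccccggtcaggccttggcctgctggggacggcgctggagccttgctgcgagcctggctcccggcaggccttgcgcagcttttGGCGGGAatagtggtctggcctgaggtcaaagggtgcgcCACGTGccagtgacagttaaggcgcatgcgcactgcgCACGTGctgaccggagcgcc

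These stretches held 18 (Dazl), 15 (Mael), 16 (Sycp1) and 16 (Hormad1) CG dinucleotides. In the whole promoter windows, 250 bases before to 50 after the start, the 10 lower germ cell genes with an entry had a median of 23 CG dinucleotides, with a range from 14 to 30. The 17 germ cell genes within 2-fold had a median of 18, with a range from 10 to 38, and all 27025 genes with a promoter entry had a median of 7. The ranges of both germ cell sets overlapped. CACGTG was in 5 of the 10 lower genes and in 5 of the 17 others, and in 7.09% of all promoters. GGCGGGA was in 3 of the 10 and 2 of the 17, and in 11.3% of all promoters. A match is a description of the letters and does not show that a factor bound there.

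Dazl, which encodes an RNA-binding protein of germ cells, was at 9.41 in parental ESCs and at 7.13 and 7.25 in the batches (−2.22 ± 0.08). Sycp1, the transverse filament of the synaptonemal complex that joins paired chromosomes, was at 8.54 against 6.46 and 6.41 (−2.10 ± 0.03). Smc1b, a cohesin subunit of meiosis, was at 8.88 and at 6.62 on both batches (−2.27). In each of the 3 genes the parental array was more than 4-fold above either batch. Hormad2 (−2.02 ± 0.17) and Hormad1 (−1.26 ± 0.00), which mark unpaired chromosome axes, were lower as well. The same held for Syce1 (−1.91 ± 0.06) of the synaptonemal complex and the meiotic cohesin gene Stag3 (−1.46 ± 0.07). Of the genes of the piRNA pathway, which silences transposons, Mael was at 11.41 against 9.53 and 9.34 (−1.98 ± 0.13), Piwil2 had a difference of −1.43 ± 0.02 and Rnf17 one of −1.16 ± 0.01. The germ cell transcription factor gene Sohlh2 (−2.00 ± 0.16) and Slc25a31 (−1.51 ± 0.11), an ADP and ATP carrier of sperm, completed the 12.

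The remaining 18 genes of the list were within 2-fold. The highest were Rec8 (0.49 ± 0.09), a meiotic cohesin subunit, Tdrd1 (0.43 ± 0.05) and Syce2 (0.38 ± 0.02), and Ddx4, the germ cell helicase Vasa, was at 0.03. The homologous and heterologous arrays share the parental array with the co-injection cells, and of the same 30 genes 13 and 14 were more than 2-fold lower there. Dazl was at 7.23 and 7.38 on these arrays and Sycp1 at 5.96 and 6.46.

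**Figure D2:**
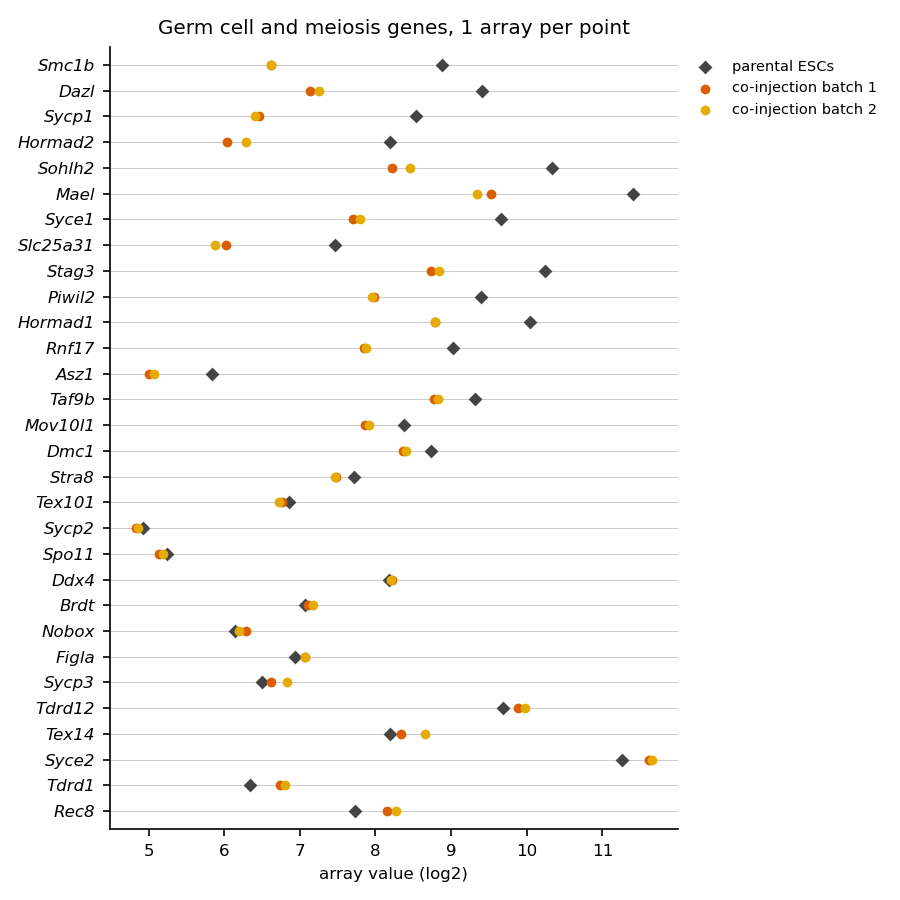
Array values (log2, horizontal axis) of the 30 germ cell and meiosis genes in parental ESCs (diamonds) and in co-injection batch 1 and batch 2 (circles), ordered by the difference. In the upper 12 genes, from Smc1b to Rnf17, both batches lie more than 1 below the parental array.

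Germ cell genes of the X chromosome formed a second list. Of 23 measured genes 6 were more than 2-fold lower, beside 1.44% of all genes, namely Nxf3, Usp26, Pnma5, the transketolase-like gene Tktl1, the homeobox gene Rhox1 and Tex11 (−1.62 ± 0.00), which takes part in meiotic recombination. Rhox9, another homeobox gene of the reproductive tract, was higher, at 9.28 in parental ESCs against 10.25 and 10.64 (1.16 ± 0.28). The median difference of the list was −0.39, and 15 genes were below 0 and 8 above it. X-linked genes as a group were shifted the same way, as given next.

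X-linked genes above the median value lay below parental ESCs as a group. Over the 359 X-linked genes with a mean level above 7.49, batch 1 had a median difference of −0.49, batch 2 one of −0.48 and their mean one of −0.50, with quartiles of −0.80 and −0.16. Over all 739 X-linked genes, dim ones included, the median was −0.13. In the mean, 295 of the 359 genes (82.2%) were below 0. Of these genes 40 were more than 2-fold lower (11.1%) and 6 more than 2-fold higher (1.67%), while over all 11600 genes above the same level it was 1.84% and 1.01%. Relative to the X median, 13 genes were more than 2-fold lower and 16 more than 2-fold higher. The shift was thus below 2-fold for most X-linked genes and was shared along the chromosome: in 5 parts of equal gene number, from Vamp7 to Mid1, the medians lay between −0.56 and −0.42.

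Split into 4 sets by level, X-linked genes had medians of −0.33, −0.52, −0.62 and −0.46 from the dimmest to the brightest set. The X median was −0.44 on the homologous and −0.47 on the heterologous array. Among X-linked genes above the median value, the farthest below parental ESCs were Slc38a5, Bgn, Tktl1, Rhox1 and 4930519F16Rik (−1.88 ± 0.00). The farthest above were Fndc3c1, Nrk, the nucleosome-binding protein gene Hmgn5 (1.62 ± 0.26), Gabra3 (1.61 ± 0.03), a GABA receptor subunit, and the leukotriene receptor gene Cysltr1 (1.30 ± 0.05).

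Xist, the RNA that coats an inactive X chromosome, was at 6.80 in parental ESCs and at 6.34 and 6.29 in the batches, below the median of all values on each array. Uty, the Y-linked homologue of a histone demethylase gene, was at 5.30 in parental ESCs and at 8.27 and 8.19 in the batches (2.93 ± 0.06, 7.59-fold). Eif2s3y, which encodes a translation factor subunit, was at 5.34 against 7.86 and 7.82 (2.50 ± 0.03). These Y-linked genes were thus low in parental ESCs and higher in both batches. The Y-linked demethylase gene Kdm5d did not follow them, with 6.24 against 6.37 and 6.36, nor did Usp9y, with 5.11 against 5.31 and 5.12. On the homologous and heterologous arrays Uty was at 8.75 and 7.78, Eif2s3y at 7.88 and 8.54, and Kdm5d at 6.29 and 6.69. The part of sex chromosome content in these values was not tested.

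Chromosome 8 moved in the other direction by a smaller amount. Its 653 genes above the median value had a median difference of 0.22 in batch 1 and 0.25 in batch 2, and 573 of them (87.7%) were above 0 in the mean. Its 5 parts, from Insr to Itgb1, had medians between 0.20 and 0.26, so the shift ran along the whole chromosome. Beside 1.01% and 1.84% of all genes above the median value, 16 of the 653 were past 2-fold higher (2.45%) and 2 lower (0.306%). The highest of them were Rnf122 (1.58 ± 0.00), the phosphatase gene Dusp4 (1.47 ± 0.03), the gelatinase gene Mmp2 (1.25 ± 0.02), Prag1 (1.20 ± 0.07) and Gnao1 (1.17 ± 0.18). The lowest of them were the mesenchymal cadherin gene Cdh11 (−1.90 ± 0.02), the transcription factor gene Nfix (−1.20 ± 0.11), B3gnt3, with 8.78 in parental ESCs and 7.75 and 7.81 in the batches, Cdyl2 (−0.98 ± 0.13) and Ido2 (−0.94 ± 0.03). The chromosome 8 median was 0.26 on the homologous and 0.04 on the heterologous array.

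On chromosome 6 the last 2 of 5 parts, from Foxp1 onward, had medians of 0.20 and 0.15, while the first 3 parts lay between 0.00 and 0.01. These last parts were at 0.19 and 0.16 on the homologous and at −0.08 and −0.04 on the heterologous array. Among genes above the median value, the highest of the chromosome were Dppa3, Capg (1.37 ± 0.06), which caps actin filaments, and the autophagy gene Gabarapl1 (1.35 ± 0.10), with Alox5 (1.22 ± 0.06) and the Eph receptor gene Epha1 (1.09 ± 0.20) after them. The lowest of these were the meiosis gene M1ap (−1.75 ± 0.10), Emp1 (−1.37 ± 0.05), the antiviral gene Zc3hav1 (−1.18 ± 0.13), Rab11fip5 (−1.15 ± 0.15) and Slc4a5 (−1.14 ± 0.04). The medians of the 18 autosomes other than 8 lay between −0.04 and 0.07, chromosome 6 being the highest of them. Apart from the last 2 parts of chromosome 6, the 88 parts outside X and 8 had medians from −0.06 to 0.157. The highest of these was the last part of chromosome 12, above the last part of chromosome 6.

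**Figure D3:**
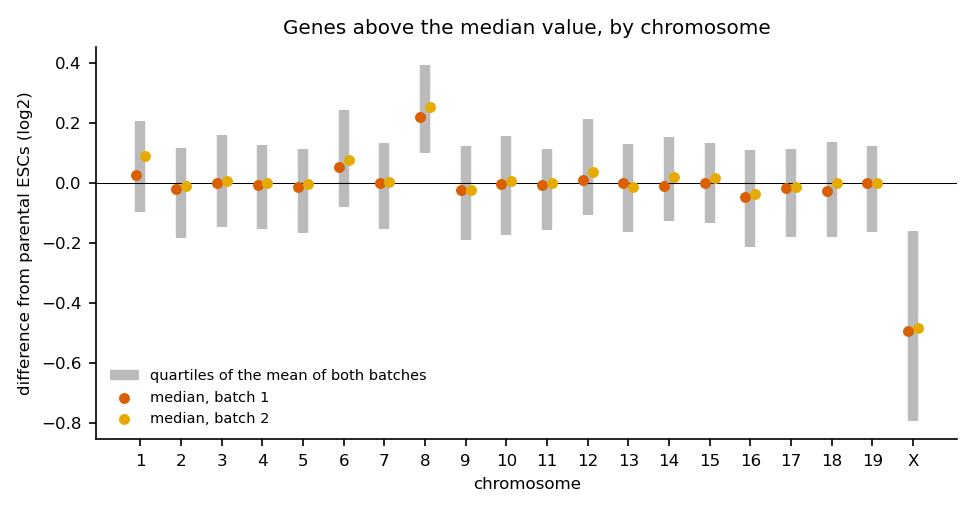
Median difference from parental ESCs (log2, vertical axis) of the genes above the median value on each autosome and the X, for batch 1 and batch 2, with bars from the lower to the upper quartile of the mean of both batches. The X lies at −0.49 and −0.48 and chromosome 8 at 0.22 and 0.25.

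Of 17 genes of naive pluripotency 3 were lower and 1 was higher, beside 1.44% and 0.647% of all genes. Prdm14, a repressor of DNA methyltransferase genes in ESCs, was at 10.24 in parental ESCs and at 8.37 and 8.48 in the batches (−1.81 ± 0.08). Tbx3, a T-box factor of the naive state, was at 11.58 against 9.93 and 9.81 (−1.71 ± 0.09), and Tcl1, a co-activator of AKT, was at 11.13 against 9.67 and 9.93 (−1.33 ± 0.18). For all of these the batches lay more than 2-fold below the parental array. In the opposite direction Dppa3 (Stella), a gene of the early embryo and of primordial germ cells, was at 7.02 against 8.85 and 8.71 (1.76 ± 0.10). The other 13 of 17 naive genes were within 2-fold, Tet2 (−0.79 ± 0.05), Klf4 (−0.77 ± 0.05) and Esrrb (−0.57 ± 0.14) among them, and the median of the list was −0.43, the lowest of 49 lists. The list had a median of −0.78 on the homologous and of −1.05 on the heterologous array.

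Of 15 primed epiblast genes 3 were more than 2-fold higher and none was lower, beside 0.647% and 1.44% of all genes. The list median was 0.44. Dnmt3a, a de novo DNA methyltransferase, was at 9.26 in parental ESCs and at 10.68 and 10.49 in the batches (1.32 ± 0.13). The claudin gene Cldn6 was at 10.77 against 12.05 and 11.94 (1.23 ± 0.07), and Sfrp2, which encodes a secreted Wnt inhibitor, at 9.18 against 10.38 and 10.36 (1.20 ± 0.02). Fgf5 (0.14 ± 0.23) and Otx2 (0.19 ± 0.21), classical markers of the primed state, differed from the parental array by less than the SD of the batches, and Nodal was at −0.21 ± 0.12. Of 16 genes of DNA methylation, Dnmt3a alone was past 2-fold, Dnmt3b was at 0.65 ± 0.12, and Tet2, Dnmt3l (−0.50 ± 0.14) and the imprint protector Zfp57 (−0.42 ± 0.00) had the lowest values. Of 23 genes of LIF and STAT3 signalling none was past 2-fold and the median was −0.19, with Stat3 at −0.01 ± 0.02 and the receptor gene Lifr at −0.19 ± 0.05. The LIF concentration went with the groups, so its part in these values cannot be told apart.

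Epithelial genes had the highest median of the 49 lists, 0.69 over 15 genes in the mean, with 0.71 for batch 1 and 0.57 for batch 2. Their leading members were keratins of simple epithelia. Krt18 was at 8.51 in parental ESCs and at 10.82 and 10.38 in the batches (2.09 ± 0.31, 4.26-fold), and its partner Krt8 at 9.77 against 11.86 and 11.47 (1.90 ± 0.27). Krt19 was at 7.58 against 9.07 and 9.04 (1.48 ± 0.02). All 3 were higher in both batches, and none of the other 10 keratin genes measured was past 2-fold. On the homologous array Krt18, Krt8 and Krt19 were at 9.02, 10.00 and 8.14, and on the heterologous array at 9.38, 10.25 and 7.67. The co-injection batches were thus the highest of the 5 arrays for these genes. The whole epithelial list had a median of 0.51 on the homologous and of −0.40 on the heterologous array. E-cadherin, Cdh1, was at 11.85 against 12.49 and 12.43 (0.61 ± 0.05), the tight junction genes Cldn7 and Cldn4 were at 0.83 and 0.71, Epcam was at −0.01 and Grhl2 at −0.62. Of 28 genes of cell junctions Cldn6 was higher, Gjb5 (−1.48 ± 0.09), a connexin gene, was lower, and the median was 0.34.

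Fibroblasts had been injected together with the ESCs, and fibroblast and matrix genes were therefore followed across all 5 arrays. Of 25 fibroblast genes 3 were more than 2-fold lower in the co-injection cells and 1 was higher, beside 1.44% and 0.647% of all genes. The list had a median of −0.13, which became −0.0498 without batch 1. Without batch 2, 2 were lower. Lox, which crosslinks collagen, was at 8.86 in parental ESCs and at 6.79 and 6.85 in the batches (−2.04 ± 0.04), against 9.32 on the homologous and 11.62 on the heterologous array. Thy1 (−1.12 ± 0.03), a surface marker of fibroblasts, and the mesenchymal homeobox gene Prrx1 (−1.07 ± 0.22) were lower as well. Mmp2, on chromosome 8, was the higher one (1.25 ± 0.02). The list had a median of 0.39 on the homologous and of 1.64 on the heterologous array, where 16 of its 25 genes were more than 2-fold higher. The co-injection cells thus had the lowest fibroblast list median of the ESC-like cells. Col1a1, the main fibroblast collagen, was at 8.88, 8.85 and 8.92 in parental ESCs and the batches, and none of 41 collagen genes was past 2-fold. All 5 cultures stood on fibroblast feeder layers, and the part of feeder RNA in these values was not tested.

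Among matrix glycoproteins 4 of 30 were lower and none was higher, beside 1.44% and 0.647% of all genes. Tnc (tenascin C) was at 10.02 in parental ESCs and at 7.17 and 7.27 in the batches (−2.80 ± 0.07), but at 10.32 on the homologous and 12.44 on the heterologous array. The other lower genes were Egfl6, Nid1 (−1.67 ± 0.03), which links basement membrane proteins, and Fbln2 (−1.13 ± 0.00). Of 26 proteoglycan genes, the X-linked Bgn (biglycan) was at 11.30 against 8.58 and 8.65 (−2.68 ± 0.05, 6.40-fold), with 12.26 and 12.93 on the homologous and heterologous arrays. The X-linked Gpc4 was lower (−1.10 ± 0.06) and Sdc4, a syndecan, higher (1.01 ± 0.01). Of 32 genes that crosslink or cleave matrix, Lox, the prolyl hydroxylase gene P4ha3 (−1.43 ± 0.07), the X-linked protease inhibitor gene Timp1 (−1.38 ± 0.09) and Pcolce2 (−1.22 ± 0.00) were lower, and Mmp2 was higher. Acta2, smooth muscle actin, was at 9.53 and 9.51 in the batches, which is −1.48 ± 0.02 from parental ESCs, and at 11.55 and 12.92 on the homologous and heterologous arrays, and it was the only one of 12 contractile genes past 2-fold. Tagln was at 9.03 in parental ESCs and at 9.35 and 9.09 in the batches. Of 25 integrin genes Itga9 was lower (−1.32 ± 0.00).

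Among 35 cytokine and chemokine genes, beside 1.44% of all genes, 3 were lower. These were Csf1 (−1.47 ± 0.17), the macrophage growth factor, and the monocyte chemokines Ccl2 (−1.24 ± 0.22) and Ccl7 (−1.05 ± 0.05). Cxcl16, a chemokine anchored in the membrane, was higher (1.20 ± 0.09). Ccl2 was at 9.10 in parental ESCs, at 7.71 and 8.02 in the batches, at 9.29 on the homologous and at 11.31 on the heterologous array, so the batches were again the lowest.

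**Figure D4:**
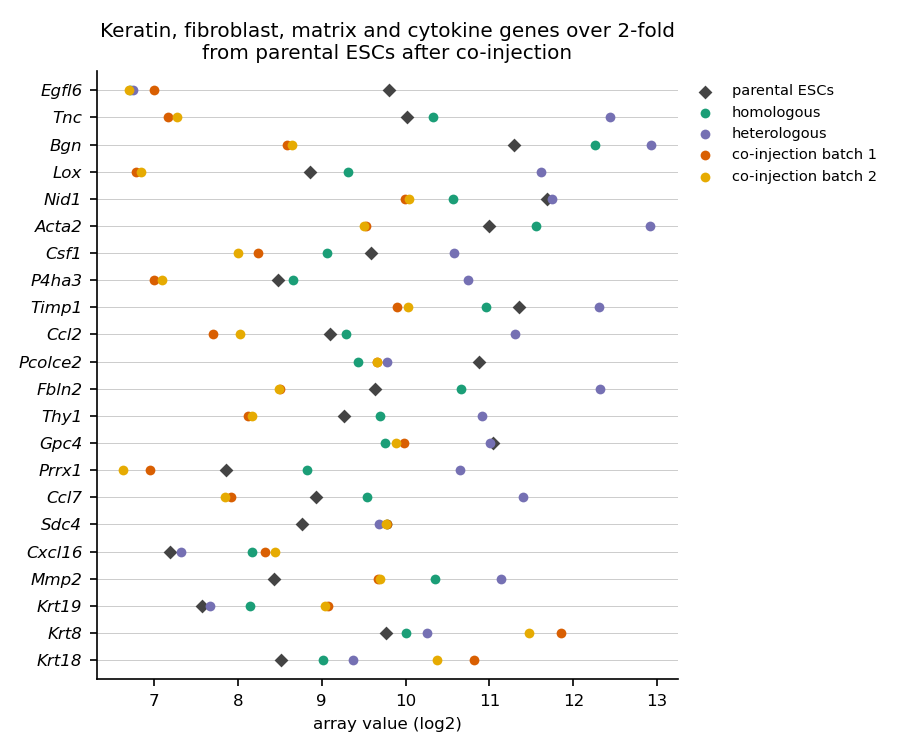
Array values (log2, horizontal axis) on all 5 arrays of the keratin, fibroblast, contractile, matrix and cytokine genes that differed more than 2-fold between co-injection cells and parental ESCs. For Tnc, Lox and Ccl2 both batches lie left of the other 3 arrays, and for Krt8, Krt18 and Krt19 right of them.

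Signalling genes differed by single members, and the counts stand beside 0.647% of all genes higher and 1.44% lower. In the TGF-beta family 2 of 51 genes were lower, both encoding activin subunits. Inhba was at 9.58 in parental ESCs and at 7.49 and 7.56 in the batches (−2.06 ± 0.05), and Inhbb at 9.80 against 8.35 and 8.38 (−1.43 ± 0.02). Tgfb2 was just under the threshold at 1.00, Lefty1 was at 0.63 ± 0.00 and the ligand gene Bmp4 at −0.83. Bmp1, a procollagen protease, was at 0.34 ± 0.02 and Tgfb3 at −0.45 ± 0.07. In the Wnt pathway, Porcn, the X-linked acyltransferase that Wnt secretion needs, was at 12.12 against 10.65 and 10.70 (−1.45 ± 0.04). Notum, which inactivates Wnt proteins, was lower too (−1.32 ± 0.06), and Sfrp2 was the only higher one of 56 genes. Wnt5a was at −0.58 ± 0.16 and Wnt8a at 0.71 ± 0.01.

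Of 40 genes of FGF signalling and ERK feedback, Fgf10 was lower (−1.30 ± 0.09), beside 1.44% of all genes. Dusp4, a phosphatase that acts on ERK, was higher, beside 0.647% of all genes. It was at 8.24 in parental ESCs and at 9.68 and 9.72 in the batches. Of 29 Notch pathway genes the ligand gene Jag2 was higher (1.22 ± 0.01), and Notch4 was at −0.99. Among the lists, axon and cell guidance had the most higher members by count, 4 of 56 beside 0.647% of all genes, and none lower. Beside Sema6a these were Sema3e, at 7.27 in parental ESCs and 8.91 on both batches, the ephrin gene Efna5 (1.29 ± 0.11) and its receptor family member Epha1. The list median was 0.07, close to the 0.04 of all genes. Smaller lists had larger shares of higher members, such as keratins with 3 of 13.

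The 22 listed genes of antigen presentation, which bear on how a host sees grafted cells, were within 2-fold. Outside this list, the MHC class I family gene H2-M5, chosen after its values were seen, was at 9.88 against 8.10 and 8.23 (−1.71). B2m, the light chain of MHC class I, was at 9.84 in parental ESCs and at 10.57 and 10.64 in the batches (0.76 ± 0.05), the immunoproteasome gene Psmb10 was at 0.71 ± 0.16, and the class II gene H2-Eb1 was at −0.94. Of 23 immune ligand and checkpoint genes none was past 2-fold, with Cd274 (PD-L1) at 0.22 ± 0.04, Cd47 at 0.50 and the adhesion genes Icam1 and Vcam1 at −0.85 and −0.81. Of 30 interferon response genes 4 were lower, beside 1.44% of all genes. Xaf1, an antagonist of apoptosis inhibitors, was at 8.33 against 6.53 and 6.49 (−1.82 ± 0.03). The RNA sensors Oas2 (−1.24 ± 0.18), Oas1a (−1.22 ± 0.20) and Ddx58 (−1.07 ± 0.07), which encodes RIG-I, were the others, while Bst2 was at 0.88 and the median of the list was 0.00.

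The 300 microRNA genes had a median difference of 0.08, and 1 of them was past 2-fold, beside 2.09% of all genes. The sequences below are those of this gene, Mir142, and of Mir380, the single gene past 2-fold between the batches. They are mature miRNAs from RefSeq (GRCm38.p6, plus strand), with the seed, bases 2 to 8, in capitals.
mmu-miR-142a-5p, chr11:87756867-87756887: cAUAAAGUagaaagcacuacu
mmu-miR-142a-3p, chr11:87756903-87756925: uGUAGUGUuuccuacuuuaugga
mmu-miR-380-5p, chr12:109711806-109711827: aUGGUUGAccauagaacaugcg
mmu-miR-380-3p, chr12:109711842-109711863: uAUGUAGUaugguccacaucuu

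The array reads the gene of a miRNA and not which mature arm is present. Mir142, whose miRNA is abundant in blood cells, was at 7.03 in parental ESCs and at 5.80 and 6.01 in the batches (−1.12 ± 0.15). Mir380 belongs to the imprinted region of Rian and Meg3 on chromosome 12. It was at 6.08 in parental ESCs, at 7.48 in batch 1 and at 6.47 in batch 2, and Rian was at 6.39, 7.86 and 7.28. In both genes batch 1 was above batch 2, and both batches were above the parental array. Meg3 was at 11.10, 11.78 and 11.45. Grb10, an imprinted gene of chromosome 11, went the other way between the batches, with 10.17 in batch 1 and 10.75 in batch 2, and 9.47 in parental ESCs. The other genes with the widest gap between the batches were Gzme, Gm5662, Ifna12, Serpina1c, Olfr1331, Gm14164 and Mir297b. Of these Gm5662 was past 2-fold from parental ESCs. Gzme and Serpina1c lay below parental ESCs in batch 1 and above them in batch 2.

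Of 39 imprinted genes, which are expressed from 1 parental allele, 3 were higher and 1 was lower. Igf2, a fetal growth factor, was at 9.13 in parental ESCs and at 10.48 and 10.42 in the batches (1.31 ± 0.04). Nnat (1.34 ± 0.24) and Rian (1.18 ± 0.41) were higher, and the zinc finger gene Plagl1 was lower (−1.24 ± 0.20). Over all genes 0.647% were higher and 1.44% lower, and 3 against 1 is too few to read a direction from. Rian passed 2-fold in batch 1 alone, with differences of 1.47 and 0.89. The median of the list was 0.20, and it was 0.25 on both the homologous and the heterologous array.

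Counts for genes of metabolism and growth stand beside 0.647% of all genes higher and 1.44% lower. Of 33 amino acid transporter genes the X-linked Slc38a5 and the creatine transporter gene Slc6a8 (−1.55 ± 0.01), also X-linked, were lower, and the X-linked Slc6a14 was higher, at 5.39 in parental ESCs and at 6.71 and 7.01 in the batches (1.47 ± 0.22). Of 30 genes of glycolysis and hypoxia Pdk1, a kinase that restrains pyruvate dehydrogenase, was higher (1.23 ± 0.01), and of 33 stress genes Ddit4, an inhibitor of mTORC1, was (1.15 ± 0.12). Of 21 genes of cholesterol synthesis the X-linked Ebp was lower (−1.46 ± 0.06). None of 36 genes of chromosome segregation and the spindle, 32 of DNA repair, 36 of the respiratory chain and 21 p53 targets was past 2-fold, with medians of 0.00, 0.04, −0.03 and 0.17.

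Most germ layer genes were within 2-fold of the parental level. The endoderm, trophectoderm and neuroectoderm lists still had larger shares past 2-fold than all genes, of which 0.647% were higher and 1.44% lower. Of 21 endoderm genes Sox7, a factor of primitive endoderm, was at 9.95 in parental ESCs and at 8.18 on both batches (−1.77), while the endocytic genes Dab2 (1.48 ± 0.04) and Cubn (1.14 ± 0.00) were higher. Of 14 trophectoderm genes Krt8 and Krt18 were higher and Gata3 was lower (−1.16 ± 0.01). Of 17 neuroectoderm genes the adhesion gene Ncam1 was at 10.71 against 8.66 and 8.90 (−1.93 ± 0.17), and the intermediate filament gene Nes (1.00 ± 0.15) was higher by a value at the threshold. None of 18 primitive streak and 18 mesoderm genes was past 2-fold. Afp (0.05 ± 0.05), Kdr (0.00) and Pax6 (0.49 ± 0.00), markers of endoderm, mesoderm and neural tissue, were within 2-fold. Of 37 Hox genes, which set position along the body axis, Hoxc12 was lower (−1.28 ± 0.03).

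**Figure D5:**
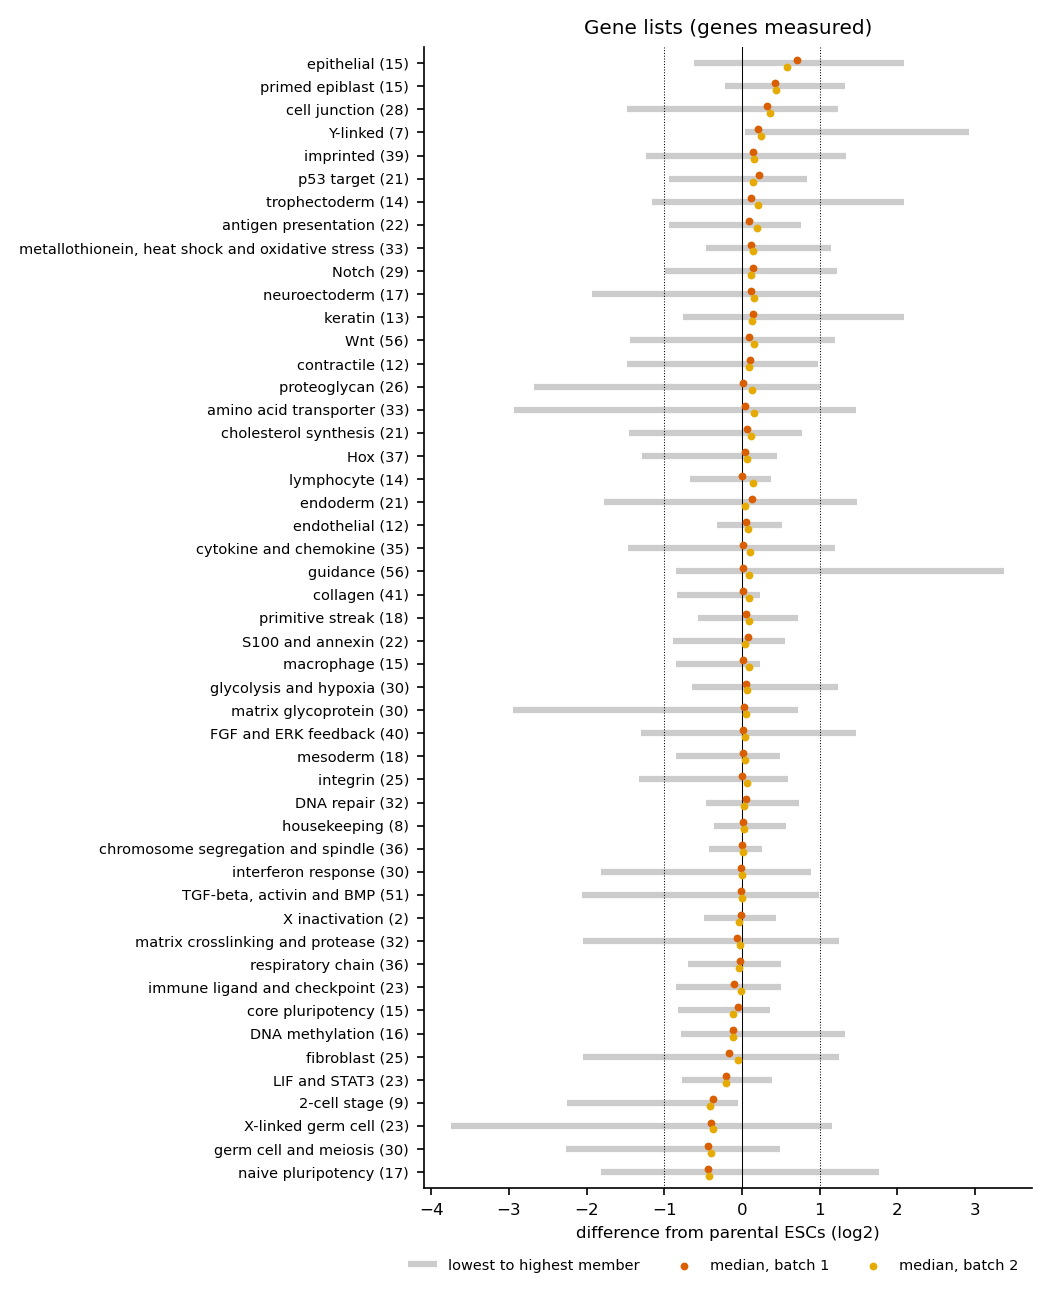
For each of 49 gene lists, with the number of genes measured in brackets, the points give the median difference from parental ESCs (log2, horizontal axis) in batch 1 and batch 2 and the bar runs from the lowest to the highest member, with dotted lines at 2-fold. List medians run from −0.43 for naive pluripotency to 0.69 for epithelial genes, and 17 lists have no member past 2-fold.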

How the data were processed

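RNA of 5 mouse cell samples was hybridised to Affymetrix Mouse Gene 1.0 ST arrays. The authors extracted intensities with GCOS, normalised them with RMA and deposited log2 expression values of 35556 probe sets per array, and the sources used here give no tool versions. These log2 values were used with no further normalisation, and array medians lay between 7.48 and 7.54. By the platform annotation 21789 probe sets name exactly 1 gene symbol, 1621 several and 12146 none. Symbols were updated by Entrez ID to RefSeq (GRCm38.p6), which matched 21698 probe sets. The brightest probe set stood for a gene, and no separation of near-identical paralogues was possible. Groups were taken from the sample labels, and with 1 parental array the values of the report carry no test. Chromosome medians used genes whose mean was above 7.49.

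The comparison and the 49 gene lists were chosen with earlier results of these data known. Genes were named by rule: the 20 farthest in each direction past 2-fold in both batches, list members past 2-fold with the 3 highest and lowest of each list, the genes named by the study, 5 at each end of a chromosome described, the 10 with the widest gap between batches, and up to 5 on each side of the threshold. Other list members in the text were picked with their values in view. The alternatives run were other folds, other probe set rules, cyclic loess, limma 3.58.1 and leaving out a batch, and the scripts were tested on simulated data. Python 3.11.15, numpy 2.4.6, pandas 2.3.3, matplotlib 3.10.9 and R 4.3.3 were used.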

Additional observations from a re-analysis of the deposited data

Results flagged for a closer look

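Some genes lay below parental ESCs on both co-injection arrays and above them on the heterologous array, more than 2-fold each way. The 14 given here belong to the lists and rankings of the report, and other genes outside these did so too. The groups share the parental array and the heterologous group has 1 array, so the difference between these effects was not tested. In the co-injection mean and the heterologous array, the differences from parental ESCs were −2.80 and 2.42 for Tnc, −2.68 and 1.63 for Bgn, −2.06 and 2.05 for Inhba, and −2.04 and 2.76 for Lox. They were −1.90 and 2.37 for Cdh11, −1.48 and 1.92 for Acta2, −1.43 and 2.26 for P4ha3, −1.37 and 1.23 for Emp1, and −1.24 and 2.21 for Ccl2. They were −1.20 and 2.27 for Nfix, −1.13 and 2.68 for Fbln2, −1.12 and 1.64 for Thy1, −1.07 and 2.80 for Prrx1, and −1.05 and 2.47 for Ccl7. None of the listed or ranked genes went the other way, higher after co-injection and lower on the heterologous array, past 2-fold each way.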

How the results depend on the processing

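Of 108 genes, the list members past 2-fold and the 20 farthest on each side, none changed sign under the alternatives run, 6 were under 2-fold in at least 1 of them, and the largest move was 0.66 on the log2 scale. They were chosen for being past 2-fold, and no gap between the batches exceeded 1.01, so leaving out a batch could not change a sign. The mean of all probe sets could not move a gene with 1 probe set, and 999 of the 19938 genes had more. The counts of 129 higher and 287 lower genes became 553 and 824 at 1.5-fold and 23 and 85 at 3-fold. Leaving out either batch gave 135 to 140 higher and 287 to 301 lower genes. Between the batches 8 genes passed 1.5-fold, and 0 passed 2-fold among genes above the median value. Under cyclic loess 408 of the 416 genes were past 2-fold again. The primed epiblast median was 0.35 with the mean of all probe sets of a gene. Leaving out either batch gave a fibroblast median of −0.16 to −0.0498, an epithelial median of 0.57 to 0.71 and an X median of −0.49 to −0.48. Over all genes, dim ones included, the chromosome 8 median was 0.17 and the X median −0.13. Relative to the X median, a setting chosen after seeing the data, 13 X-linked genes were past 2-fold lower and 16 past 2-fold higher. Without genes on X and Y, also chosen later, 120 were higher and 228 lower.

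A limma fit over all 5 arrays called 0 genes higher and 0 lower at an adjusted p under 0.05, with a lowest adjusted p of 0.0975 and 5739 genes at an unadjusted p under 0.05. It rests on 1 residual degree of freedom, so these counts say nothing on stability. No paired analysis was possible because the parental group has 1 array. Background correction and a block for slide or scan date were not run, since scanner files were not used here. Dim genes, near the background of the array, limit the measured size of a difference.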
